A study of Mus musculus with 15 samples.

Results

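The genes described here are those whose level in aortic valves with both a lost copy of Notch1 and short telomeres departed most from the sum of both single changes. Of 18073 genes in the deposited table, 6843 averaged at least 10 FPKM (fragments scaled to transcript length and library size) over the 4 groups. The members are the 50 genes of these with the most positive and the 50 with the most negative departure, 100 in all. The values used to choose them are those described below, so the departures are a description and carry no test.

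The tissue was aortic valve leaflets, 3 per mouse, from 15 C57BL/6 mice aged 2 months. The control group (labelled N1WT_TercWT, 4 mice) had intact Notch1 and intact Terc and thus long telomeres. The Notch1 group (N1het_TercWT, 4 mice) was heterozygous for Notch1 with long telomeres. The telomere group (N1WT_TercG2, 3 mice) had intact Notch1 in mice of the 2nd generation without Terc, whose telomeres are shortened, and the double group (N1het_TercG2, 4 mice) joined both changes. The nature of the Notch1 mutant allele is not given in the labels. Each group is represented by a single deposited FPKM per gene, so neither the spread between mice nor the read depth is known, and no value below has an error. Values are given in the order control, Notch1, telomere and double group.

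Notch1 is a receptor on the cell surface whose cleaved inner part enters the nucleus and acts with the DNA-binding protein RBPJ. It is needed for the formation of the aortic valve, and it also directs early blood progenitors toward the T cell lineage in the thymus. Terc is the RNA template that telomerase copies onto chromosome ends. Without it telomeres shorten from one generation to the next. When both changes act independently on a log scale, the level with both equals the control level shifted by each single change in turn. The departure is the distance of the measured level from that sum.

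The departure was computed on the log2(FPKM + 1) scale as the Notch1 change with short telomeres (double minus telomere group) minus the Notch1 change with long telomeres (Notch1 minus control group). It is the same number as the telomere change in heterozygous minus that in wild type valves. Over the 6843 genes its median was -0.02, and 5020 genes (73.4%) lay within 1 of 0. The 25th and 75th percentiles were -0.60 and 0.55. The Notch1 change with long telomeres and that with short telomeres share no group, and across the 6843 genes their Pearson correlation was 0.03 and their Spearman correlation 0.09. Genes are not independent of each other, and each group value is common to all of them. A departure of at least 2, a 4-fold distance from the sum, was found in 186 genes (2.72%) in the positive direction. In the negative direction 310 genes (4.53%) had a departure of -2 or less. The members were chosen on this contrast, so nothing is read from how many genes of a list pass these limits.

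**Figure D1:**
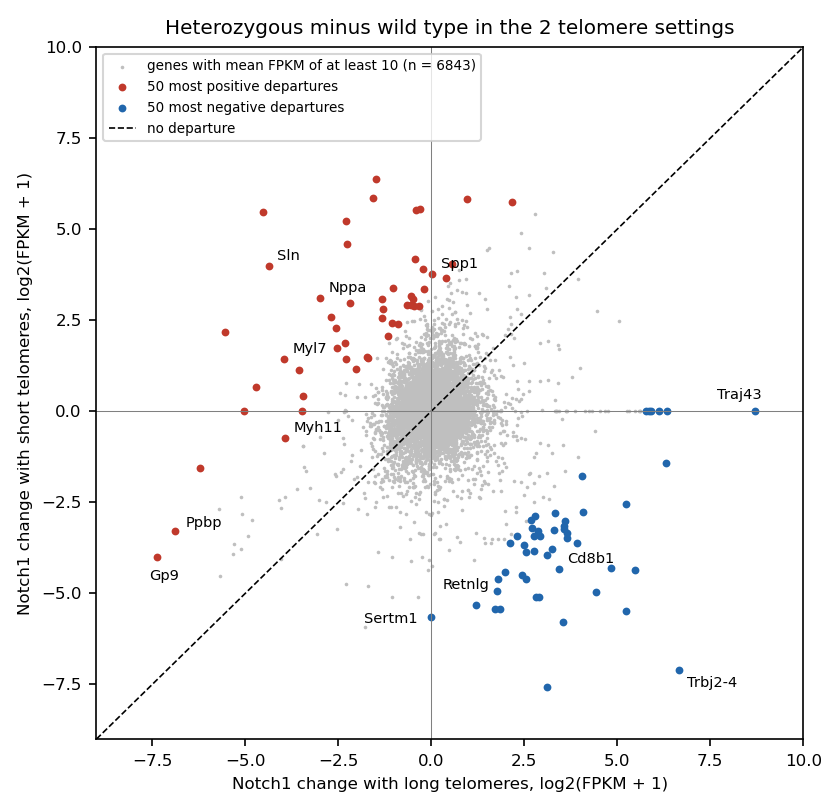
Each point is a gene that averaged at least 10 FPKM; the x axis is the Notch1 change with long telomeres and the y axis that with short telomeres, both as differences of log2(FPKM + 1), and the dashed line marks no departure. Sln and Nppa lie upper left (lower with Notch1 loss at long telomeres, higher at short), Cd8b1 and Trbj2-4 lower right, and Gp9 and Ppbp lower left, where both Notch1 changes are negative.

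Notch1 (ENSMUSG00000026923) itself stood at 39.1, 25.1, 16.6 and 23.3 FPKM, a departure of 1.09. With long telomeres the group labelled heterozygous was lower, and with short telomeres the group labelled wild type was lower, which goes against the labels' order. Whether transcript of the mutant allele is counted is not given in the sources used here. Telomere group and double group below mean the groups so labelled, and every direction between them rests on those labels. With those 2 labels exchanged, an alternative added after seeing the data, 5 of the 50 positive and 7 of the 50 negative members would remain. The T cell and atrial medians given below would then be -0.64 and 0.87, and the neutrophil and macrophage medians would reverse to 2.14 and -1.55. Terc (ENSMUSG00000064796) was under the minimum, with 1.42, 4.52, 0 and 0 FPKM. It was listed at 0 in both groups labelled as lacking it. Markers of the labelled tissue were present, with 15 of 16 valve interstitial cell and fibroblast genes over the minimum and sums of 6788, 5864, 9401 and 7193 FPKM. Both short-telomere groups carried a larger share of FPKM on mitochondrially encoded genes, 32.5% and 35% against 14.4% and 10% in the control and Notch1 groups. Of the 18073 genes, 705, 250, 2010 and 1181 were listed at 0 in the 4 groups, with the highest number in the telomere group. An exact 0 may stand for an estimate that failed, so such genes are described as listed at 0.

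The negative members were mostly genes of developing T cells. Their pattern was a high level in the Notch1 group and a low level in the double group. Of the 50, 25 were T cell receptor genes by their annotation, and with the T cell and thymocyte list the count was 32. The largest departure of all was that of Trbj2-4, a joining segment of the T cell receptor beta chain, at 0, 99.8, 136 and 0 FPKM and -13.75. It was listed at 0 in the control and the double group and was high in each group with a single change. Trbj2-5 at 14.4, 132, 190.3 and 0 FPKM (-10.69) and Trbj1-5 at 1, 74.7, 44 and 0 FPKM (-10.73) were also listed at 0 in the double group and highest after a single change. The joining segments are short, with exons of 49 bases for Trbj2-4, and FPKM divides by that length, so a few fragments give a high value.

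The constant genes of the receptor are longer. Trbc1 and Trbc2, the alternative constant parts of the beta chain, stood at 36.7, 564, 92.9 and 6.66 FPKM and at 127, 980.1, 196 and 17.2 FPKM, with departures of -7.52 and -6.37. Trac, the constant part of the alpha chain, stood at 29.4, 305, 46.9 and 5.85 FPKM (-6.13). In all 3 genes the Notch1 group was highest, the telomere group second and the double group lowest. Trac at the level of the sum would have been at 479.9 FPKM in the double group. In Trbj2-4 and Trbj2-5, by contrast, the telomere group was above the Notch1 group. Tcrg-C2, a constant gene of the gamma chain, differed from them in that the control group was lowest, at 0.303, 48.2, 38.1 and 5.71 FPKM (-7.78).

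Alpha joining segments also held members seen in 1 group alone. Traj43 was listed at 0, 414, 0 and 0 FPKM, and Traj42 at 0, 80.1, 0 and 0 FPKM. Traj7, Traj35 and Traj52 had the same form, with 68.5, 56.8 and 53.2 FPKM in the Notch1 group and a listing at 0 in the other groups. These genes were over the minimum through the Notch1 group alone, so they could only depart. The table held 112 T cell receptor genes, of which 56 were over the minimum and 47 of those had a departure of -2 or less, beside 4.53% of all genes. A high Notch1 group both carries a gene over the minimum and makes its departure negative, so nothing is read from the count of 47. Over all 112, the Notch1 group was highest for 106, and the summed level was 969.5, 7872, 1354 and 90.4 FPKM. The number listed at 0 was 43, 1, 76 and 88 of 112.

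Protein-coding T cell members were highest in the Notch1 group and lowest in the double group. Cd8b1 and Cd8a, the chains of the CD8 coreceptor, stood at 15.7, 179, 46.9 and 1.39 FPKM and at 21.4, 210.1, 32.5 and 1.43 FPKM. The sums would have put them at 516 and 314 FPKM in the double group. Their departures were -7.76 and -7.02. Dntt, the polymerase that adds untemplated bases to receptor joints, stood at 10.9, 139, 10.3 and 0.198 FPKM (-6.80). Its control and telomere levels were alike, the Notch1 group was far above them and the double group far under. Arpp21, a phosphoprotein abundant in thymocytes, stood at 8.6, 82, 14.8 and 0.0223 FPKM (-7.06), Tcf7, a transcription factor of T cell commitment, at 48, 333, 84.7 and 5 FPKM (-6.60) and Themis, needed for thymocyte selection, at 9.8, 61.8, 18.9 and 0.372 FPKM (-6.40). These 3 were also highest in the Notch1 group, with the telomere group second.

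Other receptor and signalling genes repeated that order. Cd3e, a subunit of the T cell receptor complex, stood at 35, 232, 46.5 and 4.19 FPKM (-5.89). Cd27, a costimulatory receptor, stood at 17.1, 101, 39.1 and 2.16 FPKM (-6.16), Sla2, an adaptor that dampens receptor signals, at 5.63, 47.6, 13.8 and 0.526 FPKM (-6.15) and Cd96, a receptor of T and NK cells, at 5.68, 32.1, 15.3 and 0.523 FPKM (-5.73). In these 4 genes the double group was under the control group, while both single-change groups were above it.

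On the T cell and thymocyte list, 20 of 25 genes were over the minimum, and 20 of them had a departure of -2 or less, where 4.53% of all genes did. All 20 were highest in the Notch1 group, which favours both passing the minimum and a negative departure. The median departure of these 20 genes was -5.15, from a median Notch1 change of 3.04 with long and -2.02 with short telomeres. Over all genes the medians of these changes were 0.10 and 0.05. Departures ran from -7.76 for Cd8b1 to -2.35 for Lef1, a partner of beta-catenin. Not every gene had the telomere group above the control: Ccr9, a chemokine receptor of thymocytes, stood at 21.7, 154, 3.88 and 1.03 FPKM, and Cd3d at 9.89, 52.3, 2.31 and 0.927 FPKM. Cd6, Ptcra, Zap70, Rag2 and Cd2 were under the minimum, with departures of -7.33, -6.12, -4.33, -3.38 and -0.84. In whole tissue fewer cells of a type and less RNA per cell cannot be told apart.

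A thymic epithelium list of 10 genes, written after the values were seen, held 9 measured genes, of which only Psmb11, the thymus-specific proteasome subunit, was over the minimum. Psmb11 (ENSMUSG00000072423, deposited under a clone name) stood at 0.84, 5.02, 41.7 and 0 FPKM (-7.13). Its highest value was in the telomere group and not in the Notch1 group, where T cell genes peaked. Foxn1, the defining transcription factor of thymic epithelium, was at 0.121, 0.662, 0 and 0 FPKM, and the list summed to 8.03, 32.3, 51.7 and 4 FPKM. The part of such cells in the T cell values was not tested.

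The promoter of Cd8a is shown because it is the T cell list gene of largest departure with a single listed start, and RBPJ binds the letters TGGGAA. It is RefSeq sequence on GRCm38.p6 at chr6:71373177-71373476, plus strand, from 250 bases before to 50 after the start, with that motif in capitals on whichever strand it lies.
Cd8a: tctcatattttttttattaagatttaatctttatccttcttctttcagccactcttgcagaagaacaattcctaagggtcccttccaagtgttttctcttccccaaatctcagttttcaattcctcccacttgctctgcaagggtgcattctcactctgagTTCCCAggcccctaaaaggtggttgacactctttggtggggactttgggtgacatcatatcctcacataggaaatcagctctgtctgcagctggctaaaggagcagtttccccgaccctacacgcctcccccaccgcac
The motif was found in 7 of 16 promoters of the list's genes over the minimum that had an entry (43.8%), and in 1103 of 5046 promoters of all genes over the minimum (21.9%). Among members it was found in 2 of 15 promoters on the negative side (13.3%) and 6 of 21 on the positive side (28.6%). The letters AGATAA, bound by blood cell factors of the GATA family, were in 2 of 15 and 1 of 21, and in 6.26% of promoters of genes over the minimum. TGTGGT, a RUNX motif, was in 4 of 15 and 5 of 21, against 11.6%. Both strands were searched, each motif was counted on its own, and matches of different motifs may share end letters. A match is a string of letters and not a bound site.

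Cell cycle genes had negative departures beside the T cell genes. Of 21 listed genes 8 were over the minimum, and 5 of these had a departure of -2 or less, against 4.53% of all genes. The list median was -2.79. Ccnb2, cyclin B2 of mitotic entry and the member among them, stood at 2.1, 29.4, 90 and 8.48 FPKM (-6.56). It peaked in the telomere group, and the sum would have been 893 FPKM. Kif11, a spindle motor, stood at 5.47, 33.3, 24.6 and 5.64 FPKM (-4.36), Rrm2, a subunit of ribonucleotide reductase, at 5.78, 30.5, 15.1 and 3.23 FPKM (-4.14) and Mki67, the proliferation antigen Ki-67, at 19.5, 73.5, 21.7 and 11.5 FPKM (-2.72). In the last 3 the Notch1 group was highest, as for T cell genes, whose summed list level was 316, 2857, 452 and 47.9 FPKM. The part of T cells in the cell cycle values was not tested.

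A smaller set of negative members peaked in the telomere group. Retnlg, a secreted protein of neutrophils, stood at 0.088, 3.32, 163 and 6.68 FPKM (-6.41). The entry deposited as Bet1l, the name of a SNARE protein of Golgi transport, stood at 4.81, 24.2, 202 and 15.6 FPKM (-5.73). Its identifier (ENSMUSG00000080136) is not in the annotation used here. Dusp5, a phosphatase that acts on ERK, stood at 3.61, 28.7, 41.4 and 4.36 FPKM (-5.67) and Sertm1, a small membrane protein, at 0.145, 0.132, 49.2 and 0 FPKM (-5.63). Sertm1 is the last negative member, and Traj13 just outside had -5.61. Sertm1 was near 0 in every group but one, while Dusp5 was higher in both single-change groups than in the control and double groups. The neutrophil list had 5 of 18 genes over the minimum, 4 of them at -2 or less (4.53% of all genes were), with a median of -4.55. All 5 were highest in the telomere group. A high value there both carries a gene over the minimum and makes its departure negative, so nothing is read from that count. S100a8 and S100a9, the subunits of calprotectin, stood at 4.99, 17.6, 892 and 77.4 FPKM (-5.14) and at 6.41, 16, 648 and 62.9 FPKM (-4.55). The double group stood between the control and the telomere group in both genes, so the departure marks a smaller telomere change in heterozygous valves and not a level under the control. The list summed to 19.6, 53.1, 1919 and 204 FPKM. Elane, neutrophil elastase, was listed at 0 except in the telomere group, which had 10.4 FPKM.

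The promoter of Retnlg, the neutrophil gene of largest departure, is at chr16:48872358-48872657, plus strand (RefSeq, GRCm38.p6) and held none of the 3 motifs searched.
Retnlg: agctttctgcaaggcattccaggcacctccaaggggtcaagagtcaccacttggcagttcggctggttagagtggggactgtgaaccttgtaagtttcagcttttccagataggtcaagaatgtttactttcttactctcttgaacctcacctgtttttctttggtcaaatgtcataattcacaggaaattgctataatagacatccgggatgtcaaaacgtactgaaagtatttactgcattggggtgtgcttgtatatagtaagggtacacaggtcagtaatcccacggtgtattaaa

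**Figure D2:**
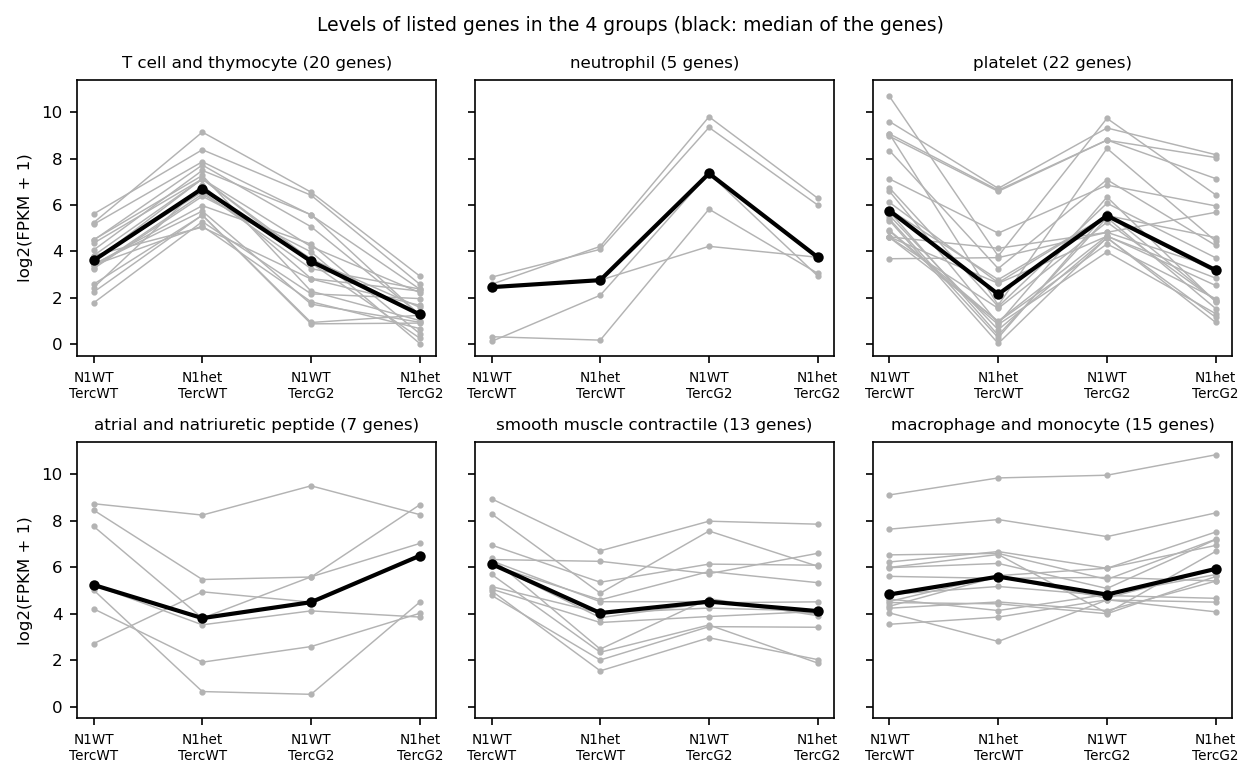
Levels as log2(FPKM + 1) in the 4 groups for 6 gene lists; each grey line joins the values of 1 gene over the minimum and the black line joins the medians, and the lines do not stand for an order of the groups. The T cell panel peaks in the Notch1 group and is lowest in the double group, the neutrophil panel peaks in the telomere group, and the platelet panel is lower in both heterozygous groups.

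Among the other lists with negative medians, melanocyte, telomere and p53 genes stood out by their size. Tyrp1, Pmel and Dct, pigment genes of melanocytes, stood at 8.32, 23, 18.3 and 3.73 FPKM (-3.39), at 12.6, 17.4, 12.1 and 2.81 FPKM (-2.21) and at 94.5, 75, 58.5 and 11.3 FPKM (-1.94). In all 3 the double group was lowest. Of 5 melanocyte genes over the minimum 2 had a departure of -2 or less, against 4.53% of all genes. The melanocyte median was -1.94, and it moved to -1.15 with a minimum of 1 FPKM or none. Of 8 telomerase and shelterin genes over the minimum 3 had a departure of -2 or less, against 4.53% of all genes (list median -1.46). Pot1b, which binds single-stranded telomeric DNA, stood at 8.98, 10.3, 18.4 and 2.47 FPKM (-2.66), Terf1, which binds the double-stranded repeat, at 5.58, 17.7, 14.6 and 8.36 FPKM (-2.24) and Tinf2, which links shelterin proteins, at 7.9, 18.4, 18.2 and 8.62 FPKM (-2.12). All 3 were higher in each single change than in the control, and Terf1 and Tinf2 were near the control level in the double group.

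The p53 targets split. Fas, a death receptor, stood at 5.8, 19.2, 31.2 and 12.9 FPKM (-2.78), Trp53inp1, a stress-induced nuclear protein, at 8.16, 40.5, 9.79 and 10.4 FPKM (-2.10) and Gadd45a, a growth arrest gene, at 6.92, 13.6, 33.7 and 14.7 FPKM (-2.03). Cdkn1a, the inhibitor p21, stood at 75.4, 138, 280.3 and 274 FPKM (-0.90), level in both short-telomere groups. Perp, a membrane protein of apoptosis and junctions, was on the other side at 22.9, 17.2, 18.3 and 47.1 FPKM (1.72). Of 13 genes over the minimum 3 had a departure of -2 or less and 0 of at least 2, against 4.53% and 2.72% of all genes. Xrcc6, the Ku70 subunit of end joining and also used in receptor gene joining, stood at 10, 37.1, 20.6 and 8.03 FPKM (-3.05). The other repair genes over the minimum lay between -0.96 and 0.25.

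The largest positive departure was that of AL807784.1, an unmatched identifier, at 22.1, 0, 0 and 43.6 FPKM (10.01), and 30 of the 50 positive members were not annotated as protein coding. Among protein-coding members the largest departures were those of Sln and Nppa, genes of atrial muscle. The 4 atrial members were high in the control and the double group and low after either single change. Sln, sarcolipin, which regulates the calcium pump of atrial muscle, stood at 31.4, 0.563, 0.439 and 21.6 FPKM (8.35). Adding both single changes would have put it below 0 FPKM, and the double group had 21.6 FPKM beside 31.4 in the control. Where the sum is below 0 FPKM, no level in the double group gives a departure of 0, so such a gene could only depart. AL807784.1, Ly6g6c and Mir199a-1, among other positive members, also had a sum below 0 FPKM. Nppa, which encodes the natriuretic peptide of the atria, had 352, 43.4, 46.8 and 413 FPKM (6.10, sum 5.02 FPKM). Myl7 and Myl4, atrial light chains of myosin, stood at 216, 13, 47.1 and 129 FPKM (5.39) and at 17.5, 2.76, 4.99 and 15.2 FPKM (3.73). In these 4 genes both single-change groups were under both other groups.

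Not all atrial genes did so. Of 7 listed genes over the minimum 4 had a departure of at least 2, where 2.72% of all genes did, and all 4 are members. Nppb, the other natriuretic peptide, stood at 5.55, 29.7, 21.5 and 89.3 FPKM (-0.23), with each single change and both together above control. Bmp10, a secreted factor of the atria, was under the minimum with 35.9, 0.162, 0 and 0 FPKM (4.99), and unlike Sln it was listed at 0 in the double group. Its sum was below 0 FPKM as well, so it could only depart, and nothing is read from its departure. Cardiac sarcomere genes in general had small departures, 0 of 20 at 2 or more, with a median of 0.27. The summed sarcomere level was 5659, 7596, 6124 and 9456 FPKM, highest in the double group, beside an atrial sum of 1146, 418, 887 and 1006 FPKM. How much muscle each dissection held was not tested.

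The promoter of Nppa, the atrial gene of largest departure with an entry, is at chr4:148000472-148000771, plus strand (RefSeq, GRCm38.p6), and it held none of the 3 motifs.
Nppa: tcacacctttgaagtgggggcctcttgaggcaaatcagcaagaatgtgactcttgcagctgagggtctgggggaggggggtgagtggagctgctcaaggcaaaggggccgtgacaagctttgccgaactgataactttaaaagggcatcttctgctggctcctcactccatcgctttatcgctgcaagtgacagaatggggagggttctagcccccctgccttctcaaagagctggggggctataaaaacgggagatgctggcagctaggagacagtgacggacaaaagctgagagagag

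Other positive members, unlike the atrial genes, were low in the telomere group alone. Nme3, a nucleoside diphosphate kinase, stood at 20.6, 15.1, 0 and 44.7 FPKM (5.93), Borcs7, a subunit of a lysosome positioning complex, at 27.7, 20.2, 1.19 and 38.8 FPKM (4.62) and Tcf21, a regulator of fibroblasts that arise from epicardium, at 26.2, 12.3, 1.01 and 20.1 FPKM (4.42). Mcee, an epimerase of propionate breakdown, stood at 40.4, 28.7, 4.61 and 46.2 FPKM (3.55), Snapc5, a factor for small nuclear RNA genes, at 39.5, 31.2, 6.17 and 52.5 FPKM (3.23) and Hilpda, a lipid droplet protein induced by hypoxia, at 10.9, 14.6, 0.688 and 20.3 FPKM (3.27). In these 6 genes the telomere group lay farther under the other 3 than those lay from each other. The same form described 83 of the 186 genes with a departure of at least 2 (44.6%), against 11% of all 6843. A low telomere group raises the departure by its definition, so choosing genes by departure favours this form and nothing is read from the larger share. The telomere group has the fewest mice, 3, and the most genes listed at 0. Ltc4s, the synthase of leukotriene C4, was also lowest there, at 12.1, 7.98, 2.51 and 25.6 FPKM (3.47).

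Another kind was high in the double group alone. Spp1, osteopontin, a matrix protein made by bone cells and activated macrophages, stood at 8.18, 8.35, 8.63 and 130.2 FPKM (3.74). The control and both single changes were within 1 FPKM of each other, and the sum would have been 8.82 FPKM. Ccl8, a chemokine that draws monocytes, stood at 6.66, 10.2, 8.04 and 149 FPKM (3.50), and Vsig4, a complement receptor of resident macrophages, at 11.2, 7.86, 6.78 and 56.6 FPKM (3.34). Gm10134, a predicted protein-coding gene, had 12.8, 8.49, 8.49 and 83.9 FPKM (3.70). In these genes no single change came near the double group.

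Macrophage genes were often highest in the double group too, by smaller amounts. Of 15 listed macrophage and monocyte genes over the minimum 11 were highest in the double group, as were 1750 of all 6843. A departure of at least 2 was found for 1 of the 15, against 2.72% of all genes (list median 0.996). Ms4a7 stood at 62.7, 92.7, 15.3 and 102 FPKM (2.10), C1qa, a chain of complement C1q, at 62.3, 70.7, 33 and 145 FPKM (1.93) and Mrc1, the mannose receptor, at 21.3, 20.5, 15 and 47.6 FPKM (1.66). Csf1r, the receptor for the macrophage growth factor, stood at 47.8, 44.9, 46.3 and 41.6 FPKM (-0.06) and was nearly level across the groups. The list summed to 1260, 1822, 1586 and 3191 FPKM. The part of macrophages in the values of Spp1, Ccl8 and Vsig4 was not tested.

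Platelet members had a positive departure of another form: both Notch1 changes were negative, and that with short telomeres was the smaller. Ppbp, a platelet chemokine, stood at 1636, 12.9, 849.9 and 85.9 FPKM, with Notch1 changes of -6.88 and -3.29 and a departure of 3.58. Gp9, a subunit of the receptor for von Willebrand factor, stood at 531, 2.21, 346 and 20.8 FPKM (3.38). Both heterozygous groups were far under both wild type groups, and the double group was under the telomere group. Of 22 platelet genes over the minimum 5 had a departure of at least 2, against 2.72% of all genes, and the list median was 1.46. P2ry12, the platelet ADP receptor, stood at 68.1, 5.28, 45.7 and 23.2 FPKM (2.51), while Gp1ba at 23.3, 1.92, 37.4 and 2.69 FPKM (-0.32) and Vwf at 23.7, 5.17, 24.2 and 6.21 FPKM (0.19) were close to additive. Vwf is also made by endothelial cells. Several platelet genes were under 1 FPKM in the Notch1 group, where the added 1 shortens the Notch1 change. Gp1bb stood at 95.1, 0.863, 80.1 and 2.55 FPKM (1.17). With 0.1 added in place of 1 the median of the list was 1.91, and with 5 added it was 0.918.

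Ly6g6c was another member with this form, at 112, 0.523, 15.7 and 4.63 FPKM (4.65), and its identifier (ENSMUSG00000007044) is not in the annotation used here. Mpig6b, an inhibitory receptor of platelets outside the 50, was named after its values were seen and stood at 65.8, 0.291, 64.5 and 9.27 FPKM (3.02). The promoter of Ppbp, the platelet gene of largest departure, is at chr5:90768268-90768567, plus strand (RefSeq, GRCm38.p6) and held none of the 3 motifs.
Ppbp: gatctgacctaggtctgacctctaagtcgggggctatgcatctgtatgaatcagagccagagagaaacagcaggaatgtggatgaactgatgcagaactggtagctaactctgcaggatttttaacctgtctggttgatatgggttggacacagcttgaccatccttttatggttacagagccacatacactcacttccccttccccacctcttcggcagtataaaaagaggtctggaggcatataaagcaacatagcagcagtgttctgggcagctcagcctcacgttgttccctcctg

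Smooth muscle genes had positive departures throughout. Myh11, the smooth muscle myosin heavy chain and the member among them, stood at 83.6, 4.55, 24.1 and 14 FPKM (3.19). The control was highest and the Notch1 group lowest. All 13 genes of the list over the minimum were above the median of all genes, and the list median was 1.72. A departure of at least 2 was found for 5 of them, against 2.72% of all genes. Mylk, the kinase of the regulatory light chain, stood at 26.7, 3.01, 9.87 and 9.66 FPKM (2.76), Lmod1, which nucleates actin, at 30.6, 1.9, 6.79 and 3.06 FPKM (2.51) and Acta2, smooth muscle actin, at 494, 104, 252 and 231 FPKM (2.11). The Notch1 change was large with long telomeres (median -2.24) and small with short ones (-0.13). The telomere group was under the control in all 13. The double group was under the control in these 4 genes.

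Matrix genes had smaller positive departures. Of 20 collagen and elastic fibre genes 18 were above the median of all genes (list median 0.97). A departure of at least 2 was found for 0 of them, against 2.72% of all genes. Ltbp2, a microfibril protein, stood at 53.2, 28.7, 25.5 and 54.3 FPKM (1.93), Col15a1 at 50.4, 29.5, 14.2 and 29.6 FPKM (1.76) and Col5a1 at 54.2, 22.6, 16.6 and 18.8 FPKM (1.40). Ltbp2 was back at the control level in the double group and Col5a1 was not. Thbs4, a matrix glycoprotein, was the last positive member, at 58.7, 13.7, 28.1 and 63.6 FPKM (3.17), and Rnaset2a just outside had 3.14. Among cartilage-type genes Chad, chondroadherin, stood at 159, 57.2, 59.6 and 167 FPKM (2.93) and Cilp at 42, 9.68, 24.1 and 31.8 FPKM (2.39). All 8 of these genes over the minimum were above the median of all genes. Chad was high in the control and double groups, as the atrial genes were.

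**Figure D3:**
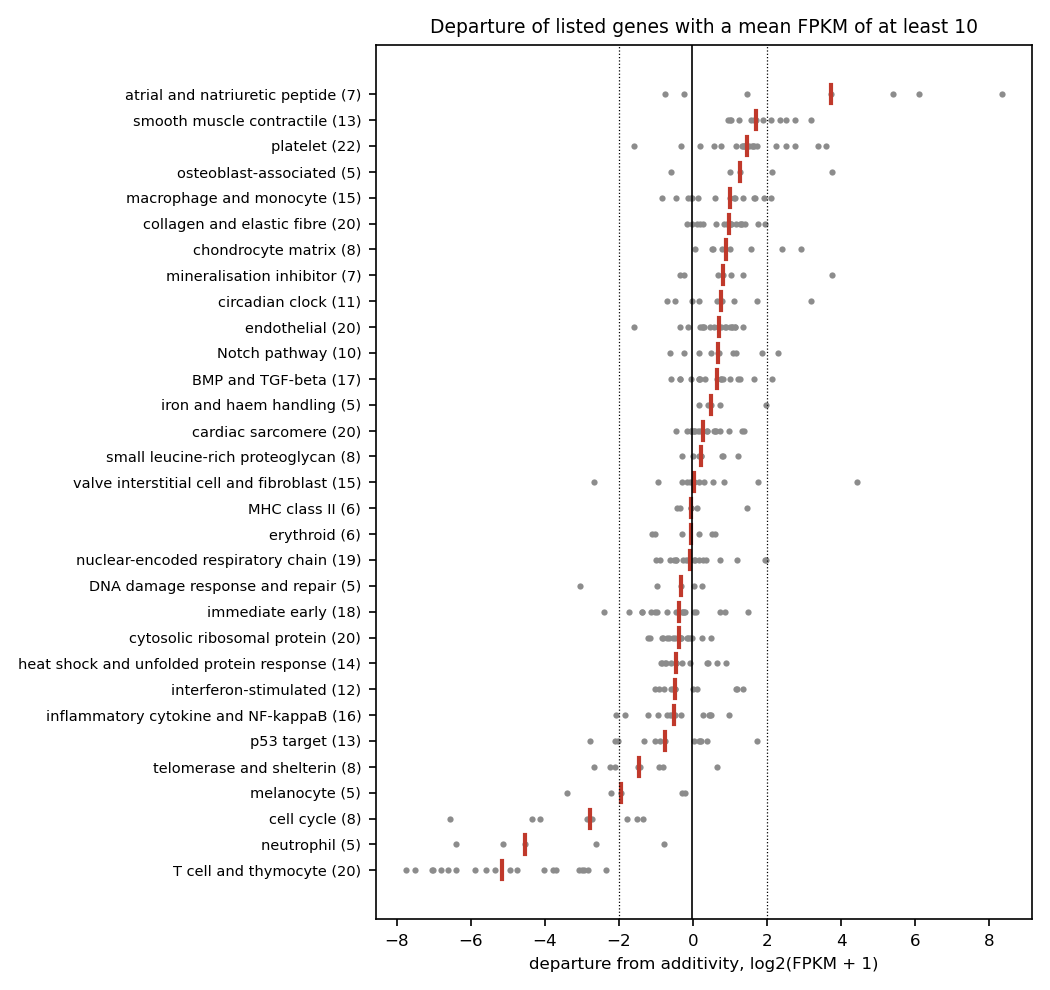
Departure from additivity on the log2(FPKM + 1) scale for listed genes that averaged at least 10 FPKM; each grey point is a gene, each red bar a list median, the solid line the median of all 6843 genes (-0.02) and the dotted lines -2 and 2. Lists with at least 5 measured genes are drawn (number in parentheses); medians run from -5.15 for T cells and thymocytes to 3.73 for atrial genes.

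The Notch pathway itself leaned to the positive side. Of 10 measured genes over the minimum 8 were above the median of all genes, and the list median was 0.68. A departure of at least 2 was found for 1 of them, against 2.72% of all genes. Hey2, a Notch target repressor, stood at 18.1, 15.7, 4.04 and 20.8 FPKM (2.31), and Jag1, a ligand, at 12.4, 8.81, 5.41 and 16.1 FPKM (1.87). Hes1, the classical target, stood at 34, 20.8, 32.3 and 32.5 FPKM (0.70). Heyl, another target, went the other way at 28.2, 13.9, 26.5 and 8.06 FPKM (-0.63), and so did the receptor Notch2 at 43, 21.6, 34.6 and 14.5 FPKM (-0.23). Under the minimum, Dll1, a ligand, stood at 7.97, 2.85, 2.12 and 8.12 FPKM (2.77), Lfng, which modifies the receptor's sugars, at 6.84, 4.94, 0.483 and 6.39 FPKM (2.72) and Nrarp, a feedback inhibitor, at 3.09, 1.95, 1.06 and 7.74 FPKM (2.56). The other genes under the minimum are not named, and these do not stand for them. With no minimum the median of all 18 measured genes was 0.68 as well. In Hey2, Jag1, Dll1, Lfng and Nrarp the telomere group was lowest.

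Of the genes tied to valve mineralisation, 5 of 10 measured osteoblast-associated genes and 7 of 11 measured inhibitors were over the minimum. Beside Spp1, Bmp2, a bone-inducing growth factor, stood at 15.4, 18.9, 7.15 and 42.5 FPKM (2.14), and both were highest in the double group. Bmp4 stood at 31.7, 33, 64.6 and 43.8 FPKM (-0.60), highest in the telomere group, and Col1a1, a collagen chain, at 199, 105, 61.3 and 79.5 FPKM (1.28), highest in the control. The inhibitor Mgp, matrix Gla protein, stood at 2835, 3275, 2489 and 4568 FPKM (0.67), Ank, a pyrophosphate transporter, at 36, 27.4, 24.1 and 48.4 FPKM (1.36) and Enpp1, which makes pyrophosphate, at 11.6, 7.2, 10.5 and 14.1 FPKM (1.02). These 3 were highest in the double group. Others were not: Smad6, which inhibits BMP signals, stood at 25.8, 11.1, 19.1 and 14.8 FPKM (0.80) and Ahsg, fetuin-A, at 57.1, 47.5, 50.9 and 35.4 FPKM (-0.25), both highest in the control. Klf2, a flow-responsive transcription factor, was highest in the telomere group at 39, 36.9, 67.4 and 50.2 FPKM (-0.34). Dbp, a transcription factor driven by the circadian clock and a positive member, stood at 47.1, 13.7, 3.56 and 11.6 FPKM (3.18). Per2, a clock repressor, stood at 23.8, 11, 5.9 and 9.99 FPKM (1.72), while Per1 at 39.3, 36.2, 18.8 and 19.5 FPKM (0.16) was near additive.

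**Figure D4:**
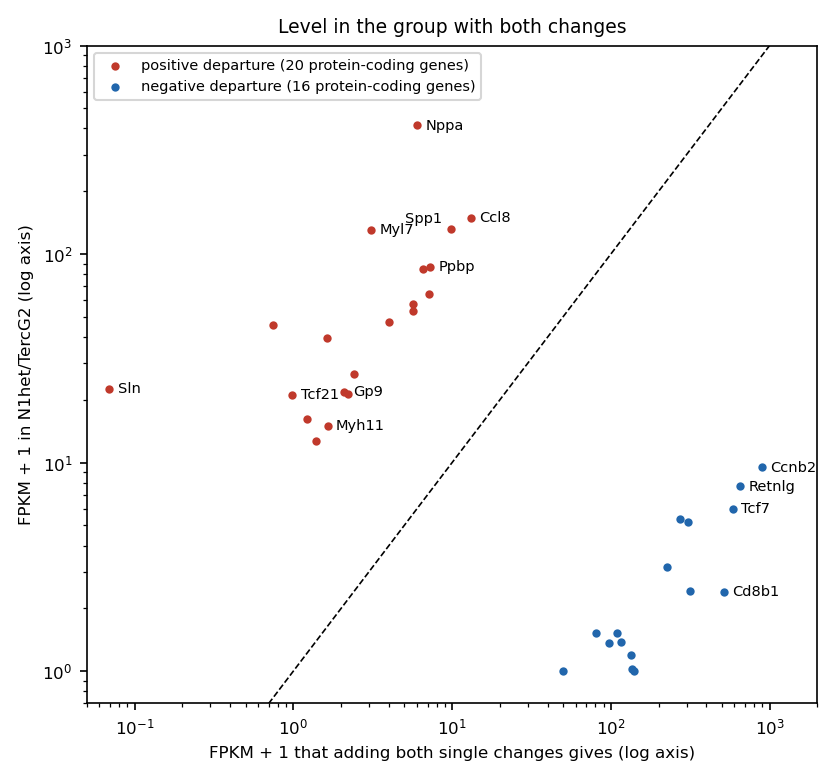
For the 20 positive and 16 negative protein-coding members, FPKM + 1 in the double group (y axis) against the value that adding both single changes to the control gives (x axis), both on log axes; the dashed line marks equality. Nppa was measured at 412.7 FPKM where the sum gives 5.02, and Tcf7 at 5 FPKM where the sum gives 583.

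The members can be sorted by the form of the departure. A Notch1 change of at least 2-fold (on the log2(FPKM + 1) scale) in opposite directions with long and with short telomeres was found for 43 of the 50 negative members and 25 of the 50 positive ones. Among all 6843 genes 166 (2.43%) had this form. The ranking is on the difference of these 2 changes and so favours opposite directions, and nothing is read from the larger share among members. The Notch1 change was at least 2-fold with short telomeres alone for 16 positive members and 1 negative member, and with long telomeres alone for 5 and 6. It had the same direction in both settings for 4 positive members, namely Ppbp, Gp9, Ly6g6c and Gm22591. A group was counted as standing apart when it lay farther from the nearest other group than those 3 lay from each other. The telomere group stood apart as low for 18 positive members, the control as high for 8 and the double group as high for 6. On the negative side the double group stood apart as low for 12, the Notch1 group as high for 8 and the telomere group as high for 6. In 18 positive and 24 negative members no single group did.

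**Figure D5:**
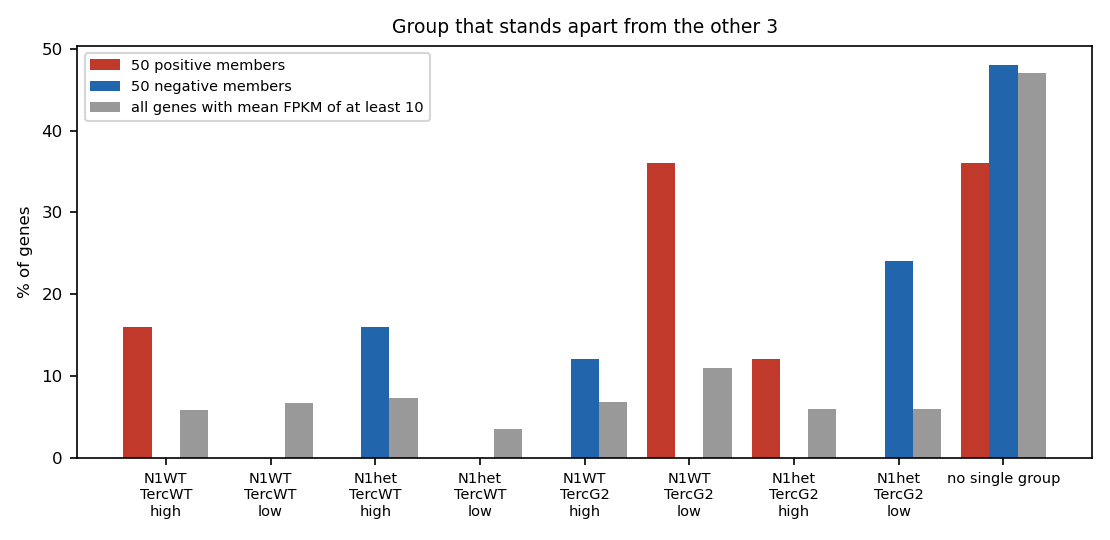
Share of genes (y axis, %) in which 1 group stood apart from the other 3 as high or low, for the 50 positive members (red), the 50 negative members (blue) and all 6843 genes (grey). The telomere group was low in 36% of positive members and 11% of all genes, and the double group was low in 24% of negative members and 5.99% of all genes. A low telomere group raises the departure and a low double group reduces it, so choosing members by departure favours these forms.

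The members differed from other genes over the minimum in kind, and negative members with a match also in length. Of the 50 negative members 25 were T cell receptor genes, many of them short joining segments. By the annotation 20 positive and 16 negative members were protein coding, against 92.5% of all 6843. Small or ribosomal RNA genes made up 13 positive members and 2 negative ones, and 14 and 5 identifiers had no match. The median exon length was 727.5 bases for the 36 positive and 433 bases for the 45 negative members with a match, where all matched genes had 4329 bases. Length was known for 72% of positive members, so for that side the comparison is void. At least 1 group was listed at 0 for 22 positive and 26 negative members, 44% and 52% against 1.65% of all 6843. On the positive side all 22 were at 0 in the telomere group. Of the 20 positive and 16 negative protein-coding members 1 and 2 were at 0 in any group. The mean of the other 3 groups was under 10 FPKM for 29 positive and 27 negative members, so these passed the minimum through 1 group.

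Several small RNA members were lowest in the telomere group. Snora23, a guide for RNA modification, stood at 26.1, 21, 0.966 and 91.3 FPKM (5.85), and the hairpins Mir199a-1 and Mir29c stood at 46.4, 3.03, 0 and 1.17 FPKM (4.68) and at 43.2, 36.8, 1.01 and 29.4 FPKM (4.14). Mir29c was like the genes low in the telomere group alone, while Mir199a-1 was high in the control alone. Such values count fragments over the hairpin locus (88 bases for Mir29c) and are not levels of the mature miRNA. The mature sequences of these hairpins are shown to identify them, both arms of each, with the seed (bases 2 to 8) in capitals (RefSeq, GRCm38.p6). The 4 seeds differ.
mmu-miR-199a-5p: cCCAGUGUucagacuaccuguuc
mmu-miR-199a-3p: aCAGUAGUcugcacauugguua
mmu-miR-29c-5p: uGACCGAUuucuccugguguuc
mmu-miR-29c-3p: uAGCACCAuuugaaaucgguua

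For contrast, 414 of the 6843 genes had both single changes of at least 2-fold. Of these, 8 without clone or predicted names had a departure within 0.2 of the median of all genes. The share of all genes within 0.2 was not counted. Both single changes share the control group, whose value also enters the departure, so nothing is read from the count of 8. Ly6a, a surface antigen of stem and endothelial cells, stood at 94.2, 275, 193 and 564 FPKM and met the sum of 561 FPKM within 3 FPKM. Tcim, a regulator of Wnt signalling, stood at 29.5, 83.4, 108 and 329.9 FPKM against a sum of 299, and Pla2g7, a phospholipase of macrophages, at 3.21, 12.4, 7.59 and 27.8 FPKM against 26.4. In these 3 genes the single changes had the same direction and the double group was highest.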

How the data were processed

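Aortic valve RNA was amplified (NuGen Ovation V2) and sequenced as paired 100 bp reads, with 4 libraries sharing a lane (per the labels' protocols); the kit keeps no strand, so overlapping genes cannot be told apart. Per the submitters' processing notes, FastQC, TopHat, SAMtools and Picard were used, with genome build mm9. Per the file headers, the authors deposited a single FPKM for every gene in each group. The way it was computed, and how mice were combined, was not given in the sources used here. Deposited calls between groups were not used. Lanes are not given, so no batch was examined.

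The departure was computed on log2(FPKM + 1) for genes averaging at least 10 FPKM, with no test, since no value per mouse was used. The members, 37 gene lists and the rules were chosen with earlier results of these data known, and 1 list (thymic epithelium) was added after the values were seen. Named genes were Notch1, Terc, the 15 largest departures per direction without clone or predicted names, the 4 largest per list, 5 additive genes and those at the edge of the 50; a part of these and of the protein-coding members is named, and 1 member is not reported here. Symbols and exon lengths came from GENCODE M21 by identifier (16966 of 18073 matched, 93.9%), whose build GRCm38 differs from mm9. The departure was tested on simulated data. Alternatives were pseudocounts of 0.1 and 5, 2 scalings, other minimum levels, gene subsets and the linear scale. Computation was in Python 3.11.15 with pandas 2.3.3 and numpy 2.4.6, and plots were made with matplotlib 3.10.9.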

Additional observations from a re-analysis of the deposited data

How the results depend on the processing

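No paired analysis was possible because the table holds 1 pooled value per gene and group, and for the same reason leaving out a replicate was not run. Without depth or spread, the error of a departure is unknown. Genes near the minimum and genes listed at 0 have the least certain values.

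With a pseudocount of 5, 89 genes had a departure of at least 2, and the medians of the T cell and atrial lists were -4.07 and 2.55. With a minimum mean of 1 FPKM the counts were 702 (at least 2) and 1050 (-2 or less), with no minimum 731 and 1102, and with a minimum of 30 FPKM 51 and 89. Of the 50 positive members, 25 remained among the top 50 with a minimum of 1 or none, and 14 with a minimum of 30, where 23 negative ones did. Neutrophil, atrial and cell cycle medians were -2.81, 1.49 and -1.54 with a minimum of 1, and -2.71, 1.45 and -1.54 with none. With a minimum of 30 the T cell, neutrophil and atrial medians were -6.25, -5.14 and 2.58. With FPKM of at least 1 in every group, 22 positive and 15 negative members remained and the atrial median was 2.59. On the linear scale 33 and 29 remained, and 99 of the 100 members kept their sign. With a minimum of 1 and with none, the medians of B cell (-0.62 to 0.38 and 0.52), liver (-0.29 to 0.98 and 1.202) and interferon-stimulated genes (-0.49 to 0.34 in both) reversed, and the p53 median from -0.76 to 0.025 (minimum of 30). More or fewer genes enter under each minimum.

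Chosen after seeing the data, the restriction to protein-coding genes left 115 and 193 genes past 2 and -2, with 20 positive and 16 negative members among the new top 50. Leaving out T cell receptor genes left 25 negative members. These member counts were fixed in advance, because removing other genes cannot push a remaining member out of the top 50. With the labels of the short-telomere groups exchanged, also chosen after seeing the data, 282 genes had a departure of at least 2 and 5 positive and 7 negative members remained. The platelet, T cell, atrial and cell cycle medians were then 6.37, -0.64, 0.87 and -0.81, and the neutrophil and macrophage medians reversed to 2.14 and -1.55. Of the list medians over all alternatives, 342 stayed within 1.5-fold, 22 moved further and 9 reversed. Those of the erythroid, MHC class II and Schwann cell lists, within 0.1 of 0, also differed in sign under both scalings.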

Other observations

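Several lists had small departures and are described here by their medians. Cytosolic ribosomal protein genes had a median departure of -0.38, with 18 of 20 under the median of all genes. For the counts of -2 or less that follow, the share among all genes was 4.53%. Immediate early genes had a median of -0.37 (1 of 18 at -2 or less), heat shock and unfolded protein response genes -0.46 (0 of 14), interferon-stimulated genes -0.49 (0 of 12; 0.34 with a minimum of 1 FPKM or none) and inflammatory cytokine genes -0.52 (1 of 16). Endothelial genes had a median of 0.70 with 13 of 20 highest in the double group (1750 of all 6843 were), BMP and TGF-beta genes 0.64, and iron and haem genes 0.48. The medians of the nuclear respiratory chain (-0.09), MHC class II (-0.06), erythroid (-0.06), valve interstitial cell and fibroblast (0.02) and small leucine-rich proteoglycan (0.22) lists were within 0.3 of 0.

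The erythroid list was close to additive at its median. Slc4a1, the anion exchanger of red cells, stood at 18.2, 5.67, 133 and 20.7 FPKM (-1.10), and Alas2, the first enzyme of haem synthesis in red cells, at 382, 141, 986 and 299 FPKM (-0.29). The Notch1 change of the erythroid list had a median of -1.24 with long and -1.45 with short telomeres.

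Among valve interstitial and fibroblast genes Thy1, a surface protein of fibroblasts and also of T cells, was the negative extreme at 43, 216, 32.1 and 24.3 FPKM (-2.69), where Tcf21 was the positive one. Mitochondrially encoded protein genes, with 4 of 13 measured, had a median of 0.38 while their telomere change was 1.68 in wild type and 2.19 in heterozygous valves. B cell (2 genes, -0.62), adipocyte (3, -0.23), Schwann cell and neuronal (2, -0.03), liver (2, -0.29; 0.98 with a minimum of 1 FPKM) and mesothelial (1, 1.10) lists had under 5 genes over the minimum.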
